A study of Mus musculus with 24 samples.

Results

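The genes described here are 10 members of the Bcl2 family, the proteins that decide at the mitochondrion whether a cell lives or dies: the pro-survival Bcl2, Bcl2l1 and Mcl1, the BH3-only Bcl2l11, Bbc3, Pmaip1, Bid and Bad, and the effectors Bax and Bak1. They were chosen by symbol, and all 10 were found among the 24421 genes of every table. Poly(A) RNA was measured in CLPs, sorted as Lin-IL-7R+, and in B220+IgM-IL-7R+ cells, called B cell progenitors, from the bone marrow of mice that lacked PLCγ1, PLCγ2, both or neither, with 3 mice per genotype and both populations from each of 12 mice. PLCγ1 and PLCγ2 are the enzymes that turn receptor signals into calcium and diacylglycerol, and the comparison asks what their loss does at the start of B cell development.

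The 4 genotypes were Plcg1+/+Plcg2+/+ (WT), Plcg1-/-Plcg2+/+, Plcg1+/+Plcg2-/- and Plcg1-/-Plcg2-/-. All donors, WT included, carried YFP and MxCre and had received poly(I-C), so every group had been exposed to Cre and to an interferon inducer. The Plcg1 allele was floxed and removed by Cre under the type I interferon-inducible Mx promoter, whereas Plcg2 was lost in the germline. Donors were young adults of mixed 129xC57BL/6 background and of both sexes. Their marrow was placed in lethally irradiated congenic CD45.1+ wild-type recipients, and CD45.2+ cells were sorted some weeks later, so the surrounding stroma was wild type. The number of donors behind each genotype is not given in the sources used here, so n counts recipients, and p-values measure the spread between recipients.

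Pro-survival members bind and hold the effectors and the BH3-only proteins. BH3-only proteins are made or released under stress or growth factor loss, and free Bax and Bak1 then open the outer mitochondrial membrane and let cytochrome c out. Early lymphoid cells depend on IL-7 and Flt3 ligand for survival, IL-7 acts in part by keeping pro-survival members high and Bcl2l11 low, and mice without Mcl1 or Bcl2l1 in these cells lose early B cells.

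Each CLP library held 4232345 to 33219995 reads on genes and each library of B cell progenitors 1479582 to 25057223, and the lowest count of any member in any library was 31 reads, for Bbc3. Between 59.9% and 87.3% of reads in the B cell progenitor libraries fell on no annotated feature, against 17.9% to 45.2% in the CLP libraries, so this difference and the population cannot be told apart. Reads on several genes made up 0.11% to 0.42% of reads in the B cell progenitor libraries and 1.06% to 1.44% in the CLP libraries. That difference and the population cannot be told apart either. The libraries labelled CLP carried B-lineage transcripts: for all 10 B cell progenitor markers examined the CLP and B cell progenitor ranges overlapped. Flt3, which defines CLPs, was above 400 CPM (counts scaled to the size of each library, with TMM factors) in 3 of 12 CLP libraries only (WT replicate 1, Plcg1-/- replicate 2 and Plcg2-/- replicate 2). Plcg2 reads fell in Plcg1-/-Plcg2-/- samples, by 1.35 on the log2 scale in B cell progenitors and by 1.1 in CLPs (edgeR, adjusted p = 0.00251 and 0.0375), while reads over the whole Plcg1 gene did not separate the genotypes. The floxed exons are only a part of that gene and their reads were not counted apart. How complete the deletion was in these libraries was therefore not tested. Xist, expressed in females, was at 1293 CPM or more in all libraries labelled Plcg1-/- and at 742 CPM or less in all others, so sex and Plcg1 genotype cannot be told apart here.

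Per kilobase of exon, Mcl1 was the most abundant member in both populations and Bax was next. The median of Mcl1 was 161 CPM per kb in CLPs (range 127 to 228, 12 libraries) and 174 CPM per kb in B cell progenitors (139 to 231), and that of Bax 95.7 (82.7 to 102) and 66.9 (57.9 to 79.3) CPM per kb. Neither range met that of the next gene in order in either population. Bak1, at medians of 39.3 and 30.6 CPM per kb, and Bid, at 32.6 and 25.4 CPM per kb, came next with ranges that overlapped, and Bcl2l1 was at 16.02 and 16.13 CPM per kb. The other 5 members had medians between 5.42 and 10.6 CPM per kb with ranges that overlapped throughout, so their order is not resolved. Bcl2, the founding member, was among these, with medians of 10.2 CPM per kb in CLPs and 5.42 CPM per kb in B cell progenitors. Exons of Bad, Bax and Bak1 share 517, 140 and 79 bases with the coding genes Gpr137, Gm45808 and Ggnbp1, which makes their counts less certain.

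**Figure D1:**
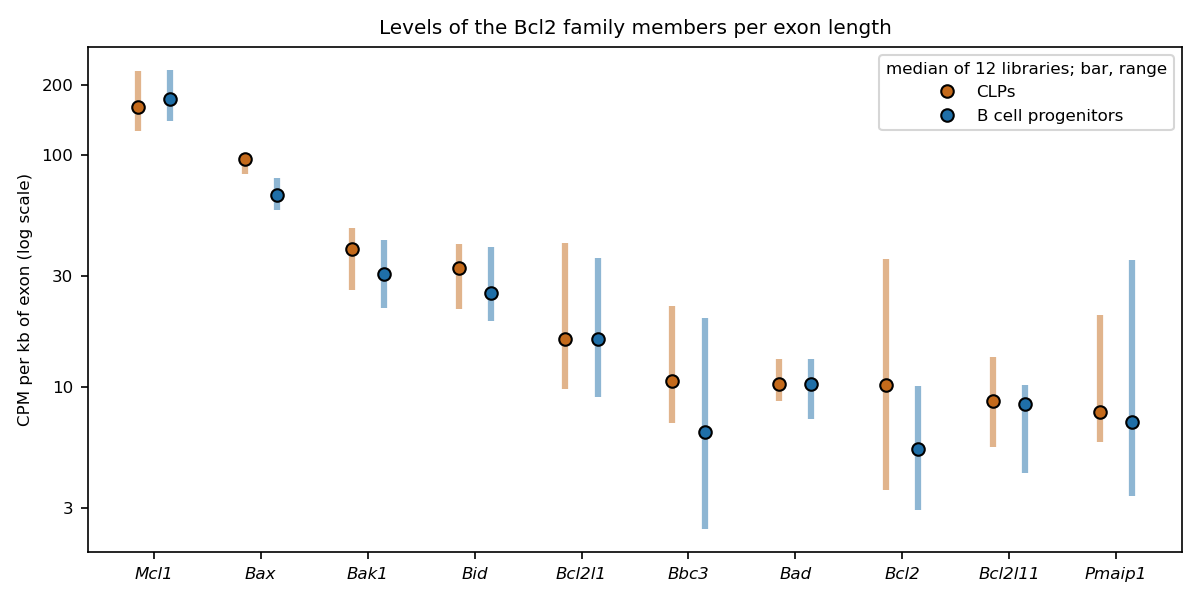
Level of each member in CPM per kb of exon (log scale), with the median (point) and range (bar) of the 12 libraries of each population. Mcl1 and Bax lie above the other members in both populations, and the medians of Bax are 95.7 in CLPs and 66.9 in B cell progenitors.

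The stretches from 250 bases before to 50 bases after the annotated starts of 9 members (15 windows, RefSeq, GRCm38.p6, the build of the deposited alignments) were searched on both strands for the FOXO motif GTAAACA and the STAT motif TTCNNNGAA, as FOXO factors and the STAT5 factor of the IL-7 receptor are known regulators of this family. The FOXO motif was in 2 windows, one of Bcl2l11 and one of Bbc3, both textbook FOXO targets, and in 3.65% of all 32851 windows. The STAT motif was in none of the 15 windows and in 8.3% of all windows. The sequences that follow are both windows with a motif, the window at the upstream-most start of Bcl2l1 and the window of Bax, printed because Bcl2l1 had the lowest adjusted p of the members between Plcg1-/-Plcg2-/- and WT B cell progenitors and Bax the lowest between populations. Capitals mark the FOXO motif or its reverse complement, and all sequences read 5′ to 3′ on the strand of the gene.
Bcl2l11, chr2:128125788-128126087, plus strand: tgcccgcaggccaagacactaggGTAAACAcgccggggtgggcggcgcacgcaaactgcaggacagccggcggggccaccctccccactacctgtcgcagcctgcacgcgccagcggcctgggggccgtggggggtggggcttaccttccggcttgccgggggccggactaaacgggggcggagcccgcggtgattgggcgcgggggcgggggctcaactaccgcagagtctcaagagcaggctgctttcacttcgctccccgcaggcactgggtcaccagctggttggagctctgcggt
Bbc3, chr7:16310011-16310310, plus strand: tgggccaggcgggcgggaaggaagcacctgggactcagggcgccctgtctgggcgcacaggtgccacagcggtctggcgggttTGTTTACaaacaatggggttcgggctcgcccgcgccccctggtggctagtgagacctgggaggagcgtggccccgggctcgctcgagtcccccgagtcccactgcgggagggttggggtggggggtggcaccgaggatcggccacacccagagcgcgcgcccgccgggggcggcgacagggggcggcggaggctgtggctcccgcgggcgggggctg
Bcl2l1, chr2:152831679-152831978, minus strand: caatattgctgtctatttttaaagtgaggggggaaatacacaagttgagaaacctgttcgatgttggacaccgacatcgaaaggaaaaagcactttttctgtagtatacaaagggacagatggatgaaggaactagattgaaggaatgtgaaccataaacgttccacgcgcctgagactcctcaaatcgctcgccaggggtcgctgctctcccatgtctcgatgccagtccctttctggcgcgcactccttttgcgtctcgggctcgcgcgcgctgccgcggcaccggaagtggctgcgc
Bax, chr7:45466849-45467148, minus strand: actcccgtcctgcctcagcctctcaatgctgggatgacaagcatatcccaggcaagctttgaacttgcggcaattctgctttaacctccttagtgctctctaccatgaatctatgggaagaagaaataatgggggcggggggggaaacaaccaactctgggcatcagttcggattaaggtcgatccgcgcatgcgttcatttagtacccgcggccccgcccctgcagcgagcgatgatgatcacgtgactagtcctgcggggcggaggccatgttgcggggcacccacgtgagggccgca
The motif began 227 bases before the annotated start of the printed Bcl2l11 window and 167 bases before that of the printed Bbc3 window. Both genes have other annotated starts, and the printed Bbc3 window lies downstream of another start of that gene.

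Of the members, Bcl2l1 differed most between Plcg1-/-Plcg2-/- and WT B cell progenitors. Bcl2l1 encodes Bcl-xL, which holds Bax and Bak1 in check and is known to come up as pro-B cells become pre-B cells. Its gene lies at chr2:152780668-152831728 (mm10, minus strand), 7.9 Mb from the floxed Plcg1 gene on the same chromosome. WT B cell progenitors had 111, 131 and 107 CPM of Bcl2l1, and Plcg1-/-Plcg2-/- B cell progenitors had 35.4, 62.1 and 59.7 CPM. All 3 double-deficient libraries were below all 3 WT libraries, and the log2 fold change was -1.14 (SE 0.36, 95% interval -1.92 to -0.35). It did not pass the threshold over all 15001 genes tested (edgeR, adjusted p = 0.214), where a call needed an adjusted p no higher than 0.05 together with a log2 fold change of 0.5 or more in size. The call turned on the fit: DESeq2 gave an adjusted p of 0.0504, and edgeR on the 6 libraries of the WT and Plcg1-/-Plcg2-/- groups alone gave -1.14 with an adjusted p of 0.0369.

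The libraries of single mutants were split for Bcl2l1. Plcg1-/- B cell progenitors had 53.0, 111 and 59.1 CPM and Plcg2-/- B cell progenitors 57.4, 140 and 63.3 CPM, so that in both genotypes replicate 2 was above the lowest WT library, and the other libraries were below all WT libraries and within or just above the double-deficient range. The log2 fold changes against WT were -0.62 (SE 0.36) and -0.37 (SE 0.36), and neither passed (edgeR, adjusted p = 0.472 and 0.919). Plcg1-/-Plcg2-/- against Plcg1-/- gave -0.52 (SE 0.36) and against Plcg2-/- -0.77 (SE 0.36), and neither passed (edgeR, adjusted p = 0.540 and 0.466). The departure from additivity of both losses was -0.15 (SE 0.51, edgeR, adjusted p = 0.943), with a 95% interval from -1.26 to 0.95.

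Markers of cell stage and division moved with Bcl2l1. The summed level of the 3 pre-B cell markers (Il2ra, Cd2 and Bach2), of which none was at 0, was 697 to 831 CPM in WT B cell progenitors and 127 to 178 CPM in Plcg1-/-Plcg2-/- ones, and it was 598 CPM in Plcg1-/- replicate 2 and 745 CPM in Plcg2-/- replicate 2 against 321 to 422 CPM in the other single-mutant libraries. In B cell progenitor libraries Bach2 was at 105 to 723 CPM, Il2ra at 2.96 to 74.0 CPM and Cd2 at 3.26 to 35.6 CPM, so this sum was mostly Bach2. The sum of 5 proliferation genes (Mki67, Top2a, Ccna2, Ccnb1 and Cdk1) was 4945 to 5252 CPM in WT and 2353 to 4222 CPM in Plcg1-/-Plcg2-/- B cell progenitors. The part of cell composition in the Bcl2l1 value was not tested, and in RNA of a sorted population fewer cells of a type and less RNA per cell cannot be told apart.

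The other pro-survival members did not separate the genotypes of B cell progenitors. Bcl2 was at 46.5, 33.8 and 52.8 CPM in WT and at 90.4, 40.5 and 54.6 CPM in Plcg1-/-Plcg2-/- B cell progenitors, with overlapping groups and a log2 fold change of 0.46 (SE 0.42, edgeR, adjusted p = 0.669). Mcl1, which is short-lived and needed at every lymphoid stage, was at 511, 605 and 761 CPM in WT and at 475, 604 and 791 CPM in Plcg1-/-Plcg2-/- libraries. Its log2 fold change of -0.0048 had a 95% interval from -0.49 to 0.48 (edgeR, adjusted p = 0.995), and its sign turned with RLE size factors (0.0038) and with DESeq2 (0.0039).

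Among the BH3-only members of B cell progenitors, Bid, which links death receptors to the mitochondrion, was at 46.5, 47.4 and 54.9 CPM in WT and at 77.3, 65.7 and 60.3 CPM in Plcg1-/-Plcg2-/- libraries. These groups did not overlap, yet the log2 fold change of 0.44 (SE 0.25) did not pass (edgeR, adjusted p = 0.5). Together with Bcl2l1 that made 2 of 10 members with groups that did not overlap, against 19.2% of all genes tested. Bcl2l11, which encodes Bim, the main killer of lymphocytes deprived of cytokine, was at 51.1, 68.8 and 64.0 CPM in WT and at 30.1, 63.9 and 62.0 CPM in double-deficient libraries, a log2 fold change of -0.22 (SE 0.33). Bad, which growth factor signals keep inactive, was at 19.7, 27.0 and 21.9 CPM in WT and at 30.1, 29.5 and 25.4 CPM in double-deficient libraries. For Bad, Bbc3 and Pmaip1 the log2 fold changes were 0.30 (SE 0.20), -0.30 (SE 0.65) and -0.60 (SE 0.94), with groups that overlapped. The effectors gave 0.0034 (SE 0.14) for Bax and 0.19 (SE 0.20) for Bak1.

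In all, edgeR called 0 of 10 members between Plcg1-/-Plcg2-/- and WT B cell progenitors, where it called 0.893% of all genes tested, and DESeq2 called 0 of 10. Only Bcl2l1 had an unadjusted p under 0.05 (1 of 10, against 12.3% of all genes). The median log2 fold change of the 10 members was -0.00068, beside -0.018 for all genes.

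**Figure D2:**
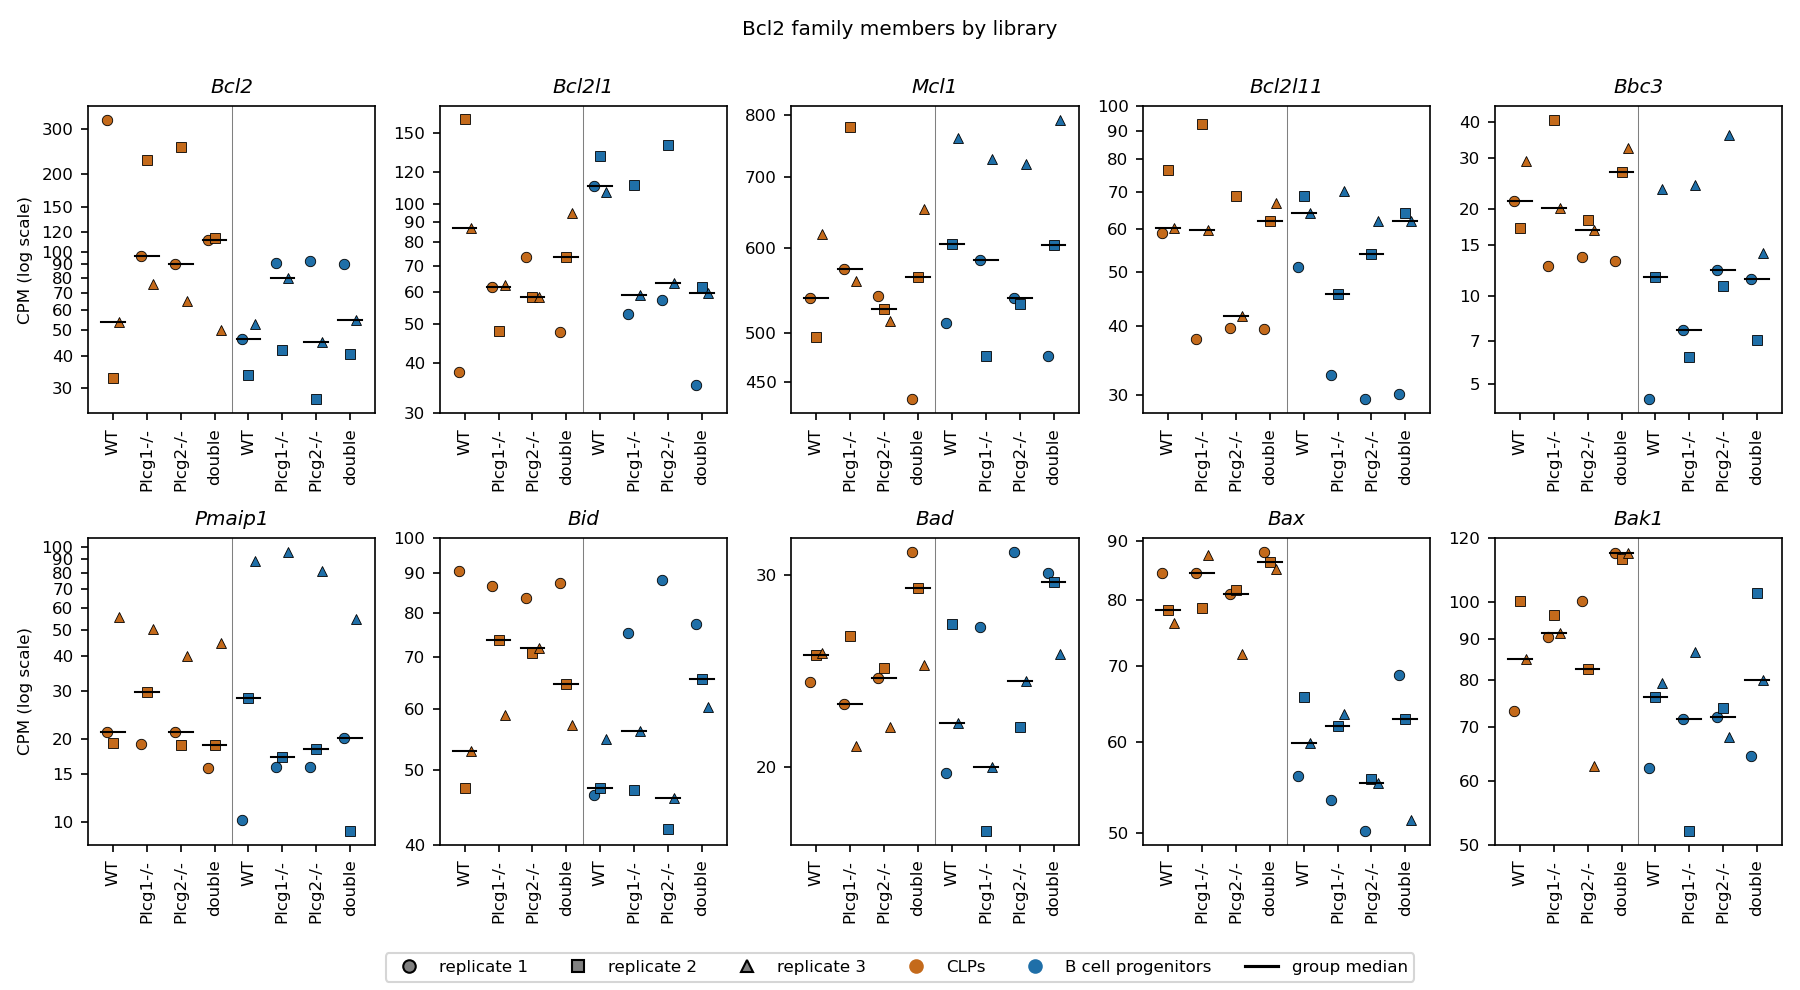
CPM (log scale) of each member in each of the 24 libraries, by genotype in CLPs (left of the line) and B cell progenitors (right), with the replicate number as the marker shape and the group median as a bar ("double" is Plcg1-/-Plcg2-/-). Bcl2l1 is at 107 to 131 CPM in WT and 35.4 to 62.1 CPM in double-deficient B cell progenitors, Bak1 is at 113 to 115 CPM in double-deficient CLPs, and Pmaip1 is highest in replicate 3 of every group.

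In CLPs the 2 effectors were above WT in every Plcg1-/-Plcg2-/- library. Bak1, a pore-forming effector that sits on mitochondria, was at 115, 113 and 115 CPM in Plcg1-/-Plcg2-/- CLPs and at 73.3, 100 and 85.0 CPM in WT CLPs, a log2 fold change of 0.40 (SE 0.16, 95% interval 0.05 to 0.75). Bax, which moves to mitochondria from the cytosol when activated, was at 88.1, 86.2 and 85.2 CPM and at 84.4, 78.4 and 76.3 CPM, a log2 fold change of 0.11 (SE 0.10). Neither passed (edgeR, adjusted p = 0.597 and 0.838), and 2 of 10 members without overlap compares with 13.6% of all genes tested. The double-deficient CLPs were also above all Plcg2-/- CLPs (100, 82.5 and 62.7 CPM) in Bak1, by a log2 fold change of 0.47 (SE 0.16, edgeR, adjusted p = 0.570). Bad and Bax were without overlap there too, both higher in double-deficient CLPs, and groups of 14.4% of all genes did not overlap. Against Plcg1-/- CLPs only Bak1 of the 10 members was without overlap (90.4 to 96.2 CPM in Plcg1-/- CLPs), beside 9.03% of all genes.

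Bcl2 and Bcl2l1 varied widely among CLP libraries of one genotype. Bcl2 was at 325, 32.9 and 53.7 CPM in WT, 97.0, 228 and 75.6 CPM in Plcg1-/-, 90.1, 255 and 65.1 CPM in Plcg2-/- and 112, 114 and 50.2 CPM in Plcg1-/-Plcg2-/- CLPs. The highest value in each of the first 3 genotypes was in the library with Flt3 above 400 CPM. The log2 fold change of Plcg1-/-Plcg2-/- against WT was -0.61 (SE 0.80, edgeR, adjusted p = 0.876), and without the Flt3-high CLP libraries, a setting added after the data were seen, it turned to 1.05 (SE 0.36, edgeR, adjusted p = 0.240). Bcl2l1 ranged from 38.1 to 162 CPM within WT alone, with 38.1 CPM in the Flt3-high library, and its log2 fold change was -0.41 (SE 0.41). Mcl1 gave -0.01 (SE 0.17). The log2 fold changes of Bcl2l11, Bbc3, Pmaip1, Bid and Bad lay between -0.29 and 0.18, with overlapping groups.

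Over CLPs edgeR called 0 of 10 members between Plcg1-/-Plcg2-/- and WT, where it called 0.0921% of all genes, and DESeq2 called 0 of 10. Bak1 alone had an unadjusted p under 0.05 (1 of 10, against 7.52% of all genes). Across all 12 contrasts between genotypes, in either population, edgeR and DESeq2 called 0 of 120 member values, and 3 of 120 had an unadjusted p under 0.05. In these contrasts 2.84% to 16.6% of all genes had an unadjusted p under 0.05 (edgeR), and DESeq2 called 11 to 802 genes per contrast. In B cell progenitors edgeR called 0.06% of all genes for Plcg1-/- and 0.0467% for Plcg2-/- against WT, 0.213% and 0.153% for Plcg1-/-Plcg2-/- against Plcg1-/- and Plcg2-/-, and 0.0267% for the departure from additivity. In CLPs the same shares were 0.00658%, 0%, 0.0263%, 0.0526% and 0.0197%. The double-deficient effect itself was not called as different between the populations for any member (edgeR, 0 of 10, and 0% of all genes, and DESeq2, 0 of 10). At an unadjusted p under 0.05 there were 0 of 10 members and 1.37% of all genes. For Bcl2l1 that difference was -0.74 (SE 0.58, 95% interval -1.93 to 0.46).

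**Figure D3:**
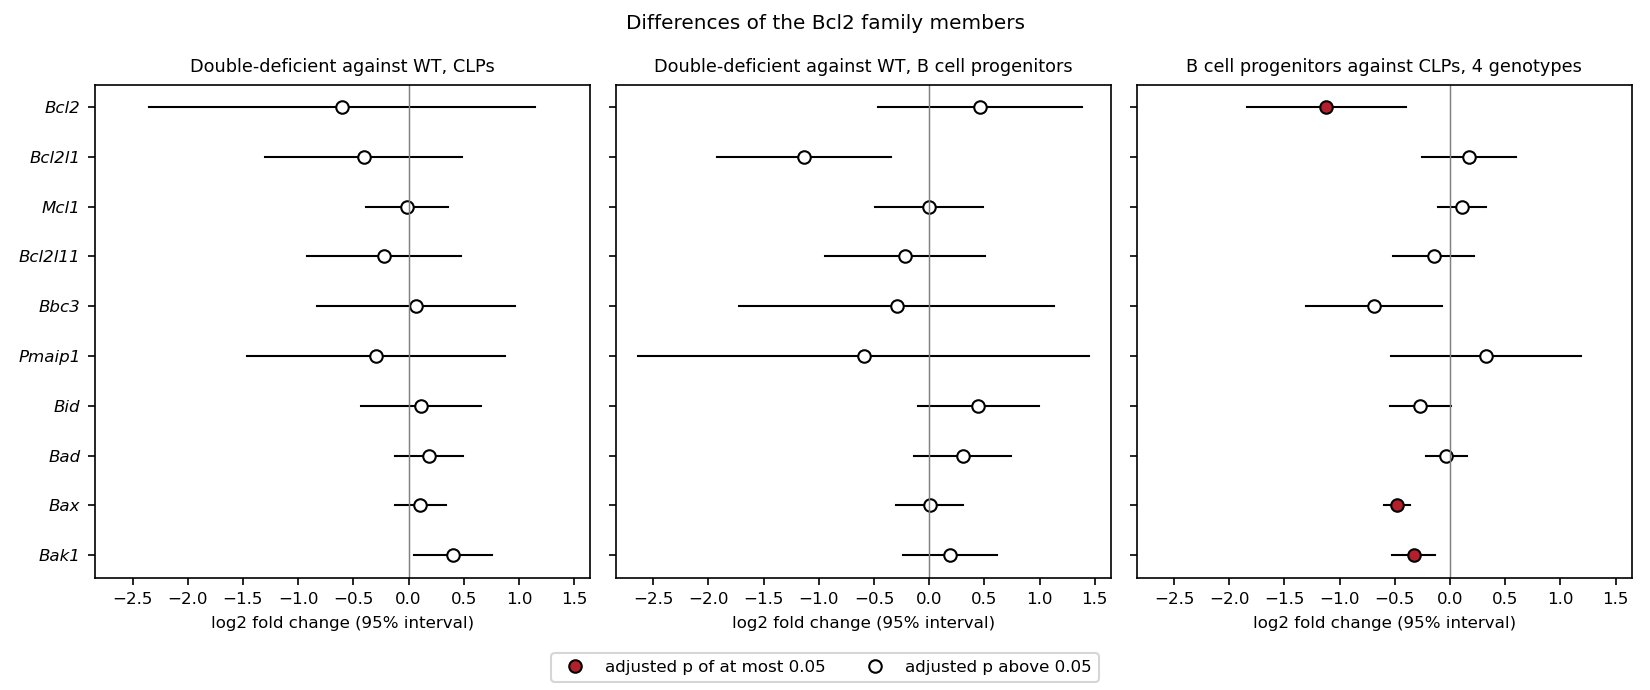
Log2 fold change of each member with its 95% interval for Plcg1-/-Plcg2-/- against WT in CLPs and in B cell progenitors, and for B cell progenitors against CLPs over the 4 genotypes; filled points have an adjusted p of at most 0.05. No point is filled between genotypes, and Bcl2, Bax and Bak1 are filled at -1.12, -0.48 and -0.33 between populations.

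Between populations the effectors were lower in B cell progenitors but short of the fold limit of 0.5, and Bcl2 was lower in 8 of 12 mice. On adjusted p alone 3 of 10 members passed over the 4 genotypes, as did 5188 of 17212 genes. The shares of all genes lower in as many mice, or with populations that did not overlap, were not computed. With the fold limit edgeR called 14.4% of all genes in this contrast. It called 1 of 10 B cell progenitor and 1 of 3 pre-B cell markers higher in B cell progenitors, and 1 of 6 CLP markers lower. It called 0 of 6 T cell, 0 of 4 immature and mature B cell and 0 of 2 tested erythroid cell markers. Markers of some other cells moved with the population: 3 of 4 plasmacytoid dendritic cell, 2 of 4 NK and innate lymphoid cell and 2 of 8 myeloid cell markers were called lower in B cell progenitors, and 2 of 5 proliferation genes higher (edgeR). Their summed levels overlapped, at 617 to 2021 CPM in CLPs and 547 to 1214 CPM in B cell progenitors for the plasmacytoid dendritic cell, 35.5 to 289.9 and 22.3 to 131 CPM for the NK and innate lymphoid cell, 2204 to 8282 and 1314 to 7226 CPM for the myeloid cell markers, and 2218 to 4443 and 2353 to 5486 CPM for the proliferation genes. Their part in the values of Bax, Bak1 and Bcl2 was not tested. Bax (chr7:45461697-45466898, mm10, minus strand) was lower in B cell progenitors than in CLPs of the same animal in 12 of 12 mice, and the populations did not overlap: 71.7 to 88.1 CPM (median 83.0) in CLPs and 50.2 to 68.8 CPM (median 58.0) in B cell progenitors. Averaged over the 4 genotypes the log2 fold change was -0.48 (SE 0.06, edgeR, adjusted p = 2.37e-06), past the limit on p but just short of the fold limit of 0.5. By genotype it was -0.39 in WT, -0.49 in Plcg1-/-, -0.54 in Plcg2-/- and -0.51 in Plcg1-/-Plcg2-/- mice (edgeR, adjusted p = 0.0584, 0.0174, 0.00905 and 0.0109). With the 6 libraries of a genotype fitted alone, the last 2 values were -0.58 and -0.49 and neither passed (edgeR, adjusted p = 0.144 and 0.111). The shares of reads on no annotated feature and on several genes separate the same libraries without overlap. They and the population cannot be told apart for Bax or Bak1 either. Bak1 was lower in 11 of 12 mice, with a log2 fold change of -0.33 (SE 0.09, edgeR, adjusted p = 0.0125). Its ranges overlapped, at 62.7 to 115 CPM in CLPs and 52.0 to 103 CPM in B cell progenitors.

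Bcl2 (chr1:106538178-106714274, mm10, minus strand) was the only member called between populations over the 4 genotypes, with a log2 fold change of -1.12 (SE 0.35, edgeR, adjusted p = 0.0190). It was lower in B cell progenitors by 2.79, 2.42 and 3.21 on the log2(CPM + 0.5) scale in the 3 mice whose CLP library was high in Flt3, and lay between -1.48 and 0.12 in the other 9. Without the 3 Flt3-high CLP libraries the value was -0.35 (SE 0.22, edgeR, adjusted p = 0.298), without WT CLP replicate 1 alone it was -0.71 (edgeR, adjusted p = 0.0617), and with the mouse as a block it was -0.87 (SE 0.36, edgeR, adjusted p = 0.0844). In WT mice alone Bcl2 gave -1.63 (SE 0.70, edgeR, adjusted p = 0.239).

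Bbc3, which encodes Puma, was lower in B cell progenitors in 10 of 12 mice, and had 12.7 to 40.6 CPM (median 19.3) in CLPs and 4.42 to 36.0 CPM (median 11.6) in B cell progenitors. Its log2 fold change was -0.69 (SE 0.30, edgeR, adjusted p = 0.0845), and with the mouse as a block it was -0.80 (SE 0.27, edgeR, adjusted p = 0.0439). The other members gave 0.17 (SE 0.20) for Bcl2l1, 0.11 (SE 0.10) for Mcl1, -0.15 (SE 0.18) for Bcl2l11, 0.33 (SE 0.41) for Pmaip1, -0.27 (SE 0.13) for Bid and -0.04 (SE 0.09) for Bad, and none passed.

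Over the 4 genotypes edgeR called 1 of 10 members, against 14.4% of all 17212 genes tested, and the members' median log2 fold change was -0.21 beside 0.08 for all genes. By genotype edgeR called 0 of 10 in WT (3.5% of all genes called), with 2 of 10 members and 16.1% of all genes at an unadjusted p under 0.05, and 0 of 10 in Plcg1-/- mice (3.78% of all genes called), with 2 of 10 members and 26.5% of all genes at an unadjusted p under 0.05, and DESeq2 called 0 of 10 in both. Of the members, edgeR called Bax alone in Plcg2-/- mice (1 of 10, against 3.21%) and in Plcg1-/-Plcg2-/- mice (1 of 10, against 3.24%). Bax was also without overlap in all 4 genotypes, where the share of all genes with groups without overlap was 20.9% in WT, 23.5% in Plcg1-/-, 18.3% in Plcg2-/- and 21.3% in Plcg1-/-Plcg2-/- mice.

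**Figure D4:**
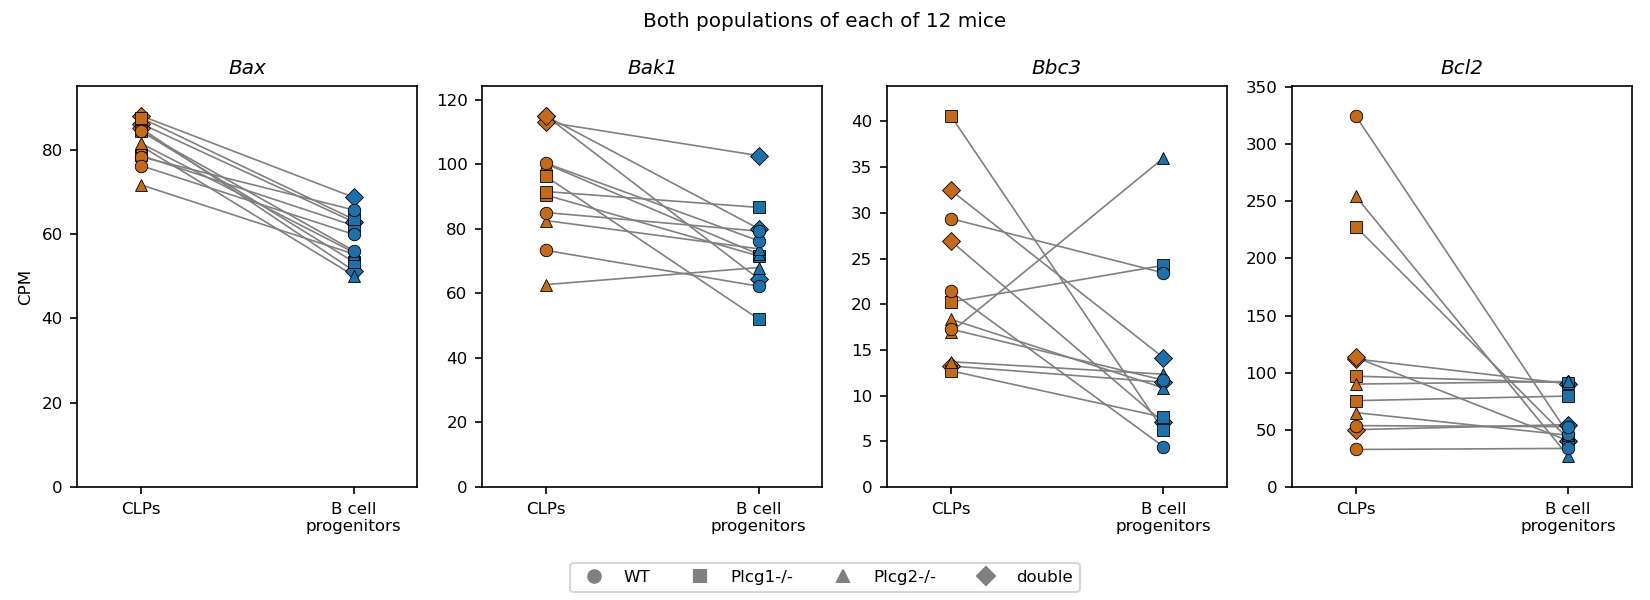
CPM of Bax, Bak1, Bbc3 and Bcl2 in the CLPs and B cell progenitors of each of the 12 mice, joined by a line, with the genotype as the marker shape ("double" is Plcg1-/-Plcg2-/-). Bax is lower in B cell progenitors in 12 of 12 mice and Bak1 in 11 of 12, and for Bcl2 the 3 steepest lines start from the CLP libraries with Flt3 above 400 CPM.

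Across the 24 libraries Bcl2 and Bcl2l1 ran in opposite directions. Pearson's r of their log2 CPM was -0.745 over all 24 libraries, -0.828 over the 12 CLP libraries and -0.804 over the 12 B cell progenitor libraries, and Spearman's rho over all 24 was -0.785. The number of Bcl2l1 reads per 100 Bcl2 reads was lowest, at 11.7, in the Flt3-high WT CLP library and highest, at 516, in one Plcg2-/- B cell progenitor library. It was 39.1 to 153 in Plcg1-/-Plcg2-/- and 202 to 388 in WT B cell progenitors. Bcl2 followed Flt3, the receptor tyrosine kinase of early lymphoid progenitors (r = 0.962 over 24 libraries, 0.906 over the 21 without the Flt3-high CLP libraries, and 0.888 over the B cell progenitor libraries). Of all 17212 genes the 3 most like Bcl2 over the 24 libraries were Cd27 (r = 0.964), Tmem173 (0.963) and Flt3 (0.962). Bcl2l1 went with the sum of the 5 proliferation genes (r = 0.833 over 24 libraries, 0.934 in CLPs and 0.898 in B cell progenitors) and with the sum of the pre-B cell markers, mostly Bach2 (0.759, 0.619 and 0.870). In CLPs the latter was loose (rho = 0.399), and Plcg1-/-Plcg2-/- CLPs had 47.7 to 94.6 CPM of Bcl2l1 with pre-B cell marker sums of 127 to 154 CPM. The genes most like Bcl2l1 were Zfp821 (0.945), Mrpl49 (0.927) and Mybpc2 (0.926), and those most like Bcl2l11 were Zfp36l1 (0.934), Dnajb1 (0.928) and Smad7 (0.910). These are descriptions over libraries that share animals and differ in depth, and carry no test.

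**Figure D5:**
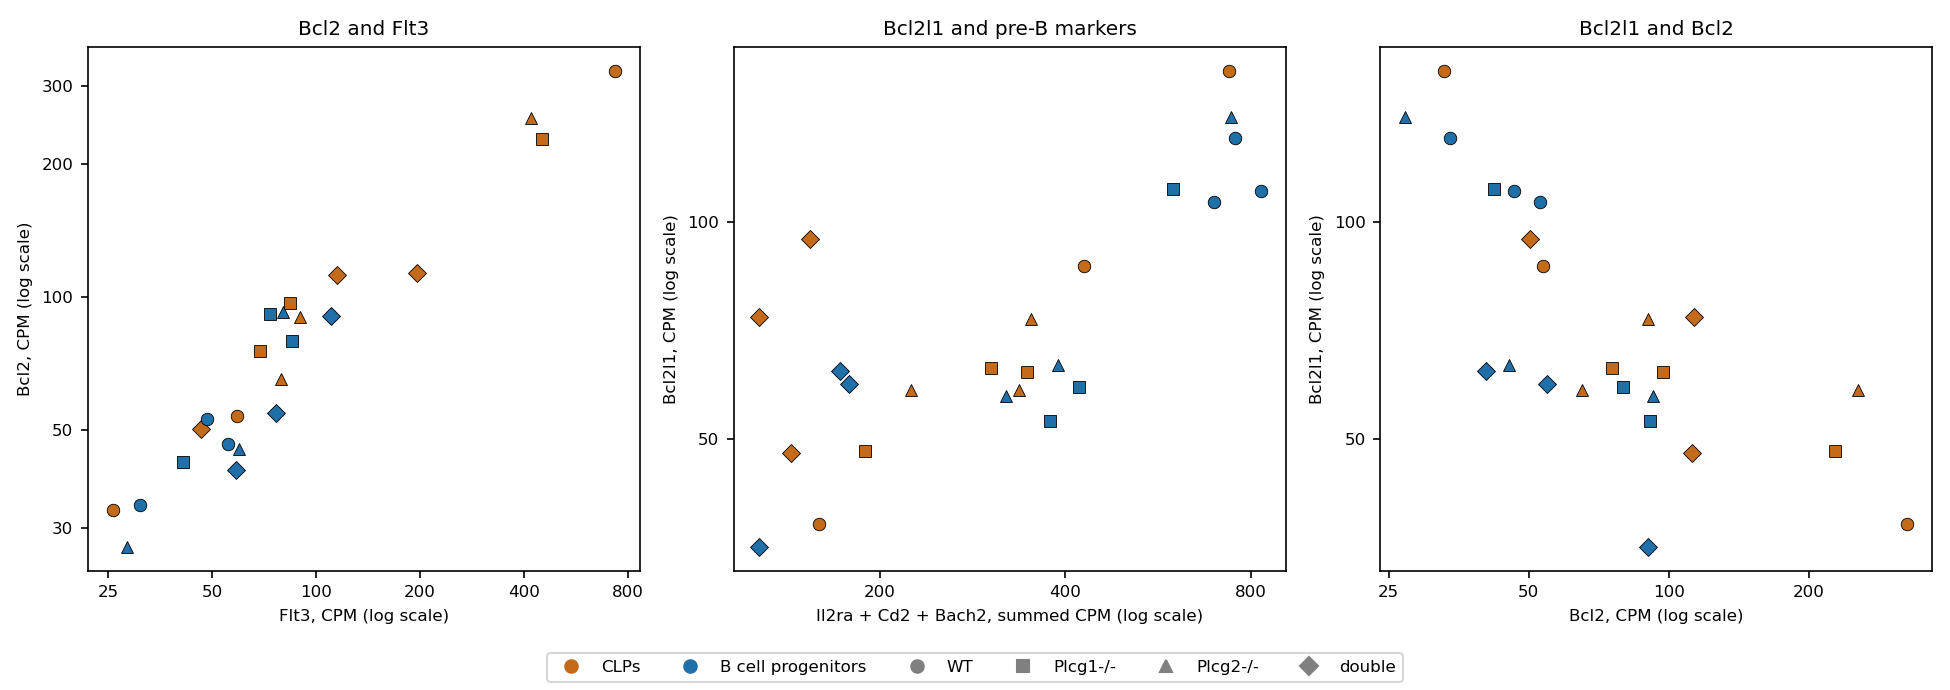
Bcl2 against Flt3, Bcl2l1 against the summed pre-B cell markers and Bcl2l1 against Bcl2, all in CPM on log scales, 1 point per library with the population as the colour and the genotype as the shape ("double" is Plcg1-/-Plcg2-/-). The 3 CLP libraries with Flt3 above 400 CPM are the 3 highest in Bcl2, and Bcl2 and Bcl2l1 fall along opposite slopes (r = -0.745).

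Pmaip1, which encodes Noxa, the partner that marks Mcl1 for destruction, was highest in the same replicate number of every group. In WT it was at 21.2, 19.5 and 55.8 CPM in CLPs and at 10.2, 28.3 and 89.0 CPM in B cell progenitors. In Plcg1-/-Plcg2-/- mice it was at 15.8, 19.1 and 44.9 CPM in CLPs and at 20.3, 9.30 and 54.8 CPM in B cell progenitors. The library numbered 3 was the highest in 8 of 8 groups, as it was for 0.279% of all genes tested. The number was not chosen beforehand: replicate 1 was highest in all 8 groups for 0.482% of all genes and replicate 2 for 0.831%. The lowest Pmaip1 value of the libraries numbered 3, 40.03 CPM, was above the highest of any other library, 29.8 CPM. Bid was highest in replicate 1 in 7 of 8 groups, and Mcl1 and Bbc3 were highest in replicate 3 in 6 of 8. The share of all genes with counts of 7 or 6 was not computed. Both libraries of a mouse carry the same number, so the 8 groups are not independent. The labels do not say what the number marks beyond the animal, so its part in these levels was not tested.

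The genes around the family gave few calls between genotypes. Of 13 other Bcl2 family genes, 7 were tested in B cell progenitors and 10 in CLPs, and edgeR called 0 between Plcg1-/-Plcg2-/- and WT in either (1 unadjusted in each, and DESeq2, 0). With a replicate block, or with the 2 groups fitted alone, edgeR called 1 of this list in B cell progenitors. The gene with an unadjusted p under 0.05 was the same in both populations: Bcl2l2, which encodes the pro-survival Bcl-w and is named here after its values were seen. It was at 10.3, 9.33 and 13.4 CPM in WT and at 23.6, 22.4 and 22.8 CPM in Plcg1-/-Plcg2-/- B cell progenitors, a log2 fold change of 1.05 (SE 0.32, edgeR, adjusted p = 0.196). In CLPs it was at 19.9, 9.98 and 13.8 CPM in WT and at 29.8, 21.8 and 24.8 CPM in Plcg1-/-Plcg2-/- cells, a log2 fold change of 0.78 (SE 0.25, edgeR, adjusted p = 0.409). All double-deficient libraries were above all WT libraries in both populations, where groups of 19.2% (B cell progenitors) and 13.6% (CLPs) of all genes did not overlap. All Plcg1-/- CLP libraries, at 20.3 to 24.6 CPM, were also above all WT CLP libraries, of which the highest was at 19.9 CPM. Groups of 6% of all genes did not overlap there. Plcg2-/- CLPs, at 17.8 to 25.2 CPM, overlapped with WT. So did the single-mutant B cell progenitors, at 9.50 to 20.8 CPM (Plcg1-/-) and 8.66 to 21.5 CPM (Plcg2-/-). Between populations edgeR called 0 of the 10 tested (14.4% of all genes called), with 4 of 10 and 41.7% of all genes at an unadjusted p under 0.05. The count was 1 on adjusted p alone or without the filter, 2 without the 3 B cell progenitor libraries with Il7r below 200 CPM or without the 3 under 3000000 reads, and 0 to 2 with 1 library left out. DESeq2 called 1, Bik, a BH3-only gene, at -1.56 (SE 0.58, DESeq2, adjusted p = 0.0245), where edgeR gave -1.54 (SE 0.58, edgeR, adjusted p = 0.0514). Bik was low throughout, at 0.22 to 3.20 CPM in CLPs and 0 to 1.33 CPM in B cell progenitors. The A1 genes Bcl2a1a, Bcl2a1b and Bcl2a1d are near-identical copies whose reads cannot be split with certainty, and they are given no value.

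Of 16 genes of the mitochondrial death pathway downstream of the family, edgeR called 0 between Plcg1-/-Plcg2-/- and WT in B cell progenitors (1 unadjusted) and 0 in CLPs (2 unadjusted), and DESeq2 called 0 in both. Between populations it called 2 of 16, against 14.4% of all genes, so the list as a whole was near that share. Endog, a nuclease that mitochondria release, rose by 1.75 on the log2 scale in B cell progenitors (SE 0.11, edgeR, adjusted p = 1.85e-10), from 3.83 to 6.26 CPM in CLPs to 13.04 to 20.7 CPM. Cycs, which encodes the cytochrome c that Bax and Bak1 let out, fell by 0.80 (SE 0.11, edgeR, adjusted p = 2.47e-05), from 37.9 to 74.2 CPM in CLPs to 25.2 to 40.9 CPM.

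Of 12 genes that regulate family members, edgeR called 0 between Plcg1-/-Plcg2-/- and WT in either population (2 unadjusted in each), and DESeq2 called 2 in B cell progenitors and 0 in CLPs. In B cell progenitors edgeR called 2 with a replicate block and 1 without the libraries with Il7r below 200 CPM. The 2 that DESeq2 called were E2f1, a cell cycle transcription factor, with a log2 fold change of -0.58 (SE 0.14, edgeR, adjusted p = 0.0979, DESeq2, adjusted p = 0.00220), and Pim2, a kinase induced by cytokines that inactivates Bad, with -0.80 (SE 0.20, edgeR, adjusted p = 0.100, DESeq2, adjusted p = 0.0125). Pim2 was at 21.5, 27.6 and 26.4 CPM in WT and at 15.4, 14.5 and 13.6 CPM in Plcg1-/-Plcg2-/- B cell progenitors. Between populations edgeR called 2 of 12, against 14.4% of all genes: Pim2 fell by 0.64 in B cell progenitors (SE 0.12, edgeR, adjusted p = 4.68e-04), and Foxo3, a factor that drives Bcl2l11 and Bbc3, fell by 0.51 (SE 0.16, edgeR, adjusted p = 0.0188). The count was 0 without the Flt3-high CLP libraries and 1 with the mouse as a block. It was also 1 without any single one of WT CLP replicate 1, replicate 2 of each mutant CLP group, WT B cell progenitor replicates 1 and 2, Plcg1-/-Plcg2-/- B cell progenitor replicate 1, Plcg1-/- B cell progenitor replicate 2 and Plcg2-/- B cell progenitor replicates 2 and 3.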

How the data were processed

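Per the labels and the study's methods, the authors made poly(A) libraries with a NEBNext Ultra kit, sequenced them on a NextSeq 500, processed reads on BaseSpace and aligned them with STAR 2.5.0a to mm10 (RefSeq), and tested genes with DESeq2; the counting program is not given in the sources used here. The deposited files hold raw read counts per gene symbol for 24 libraries, and rows for reads on no feature or on several genes were left out. The latter held 0.11% to 0.42% of reads in B cell progenitor libraries and 1.06% to 1.44% in CLP libraries. The members, gene lists and alternatives were chosen with earlier results of these data known. Counts were filtered (filterByExpr), scaled (TMM) and tested with edgeR 4.0.16 (quasi-likelihood, R 4.3.3), in 1 fit for each population and 1 over both, with Benjamini-Hochberg adjustment over all genes, on 15001 (B cell progenitors), 15209 (CLPs) and 17212 genes; DESeq2 1.42.0 was an alternative. The method was tested on simulated data with independent libraries, which held no shared mice and no outlying libraries. CPM values come from TMM scaling over 24 libraries. Exon lengths come from GENCODE M21. Members were named in full; of other lists, genes called by edgeR or DESeq2 between Plcg1-/-Plcg2-/- and WT or between populations were named, and for Bcl2, Bcl2l1 and Bcl2l11 the 3 genes of highest Pearson's r (log2 CPM, prior count 2). Both populations of a mouse come from 1 animal, and their deviations from group means correlated at a mean of 0.114 (range -0.35 to 0.53, 12 mice), so the mouse was used as a block as an alternative. Depth limits the precision most in the 3 B cell progenitor libraries under 3000000 reads.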

Additional observations from a re-analysis of the deposited data

How the results depend on the processing

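Members called between Plcg1-/-Plcg2-/- and WT B cell progenitors numbered 0, and 1 (Bcl2l1) with a replicate block (-1.18, edgeR, adjusted p = 0.0154) or with the 2 groups fitted alone. Deviations from group means of mutant and WT libraries with the same number correlated from -0.517 to 0.363. For Plcg1-/-Plcg2-/- and WT B cell progenitors the mean was 0.055 (-0.062 to 0.288, 3 pairs), against -0.027 for different numbers. So few pairs cannot show whether the numbers pair the genotypes. With 1 library left out, Bcl2l1 lay between -1.27 and -0.93 and was not called. Between populations, 1 member was called over the 4 genotypes, against 3 on adjusted p alone, 2 without the filter, and 0, 3 and 3 without the Flt3-high CLP libraries, the B cell progenitor libraries with Il7r below 200 CPM or the libraries under 3000000 reads, all 3 chosen after seeing the data. Leaving out 1 library gave 0 to 3. In Plcg1-/- mice 1 member was called on adjusted p alone and 1 without the filter (0 to 1 with 1 library left out), and in Plcg2-/- and Plcg1-/-Plcg2-/- mice 0 and 0 with the groups alone (0 to 1 in each with 1 library left out). Signs turned, on the log2 scale, in these settings; the cause was not tested. For Plcg1-/-Plcg2-/- against WT B cell progenitors, Mcl1 was 0.0038 with RLE size factors, 0.0039 with DESeq2, and 0.14 and 0.17 without the Il7r-low and the shallow libraries, where Bcl2l11 was 0.018 and 0.048 and Bax -0.11 and -0.079; Bax was -0.00058 with the replicate block and -0.00027 with the groups alone. In CLPs, Mcl1 was 0.020 without the filter, Bbc3 -0.034 with the replicate block, and Bcl2 1.05 without the Flt3-high libraries, where Bcl2l11 between populations was 0.0073. With 1 library left out, values in B cell progenitors ran from -0.21 to 0.17 (Mcl1), -0.38 to 0.048 (Bcl2l11), -0.70 to 0.44 (Bbc3), -1.58 to 0.57 (Pmaip1) and -0.079 to 0.12 (Bax), and in CLPs from -1.05 to 1.06 (Bcl2), -0.79 to 0.21 (Bcl2l1), -0.17 to 0.13 (Mcl1), -0.22 to 0.36 (Bbc3), -0.92 to 0.38 (Pmaip1) and -0.089 to 0.47 (Bid). Between populations they ran from -2.11 to 0.019 for Bcl2 in WT and from -0.015 to 0.50 for Pmaip1. Over all genes, 134 were called between Plcg1-/-Plcg2-/- and WT B cell progenitors (33 higher, 101 lower), against 444 with DESeq2, 550 with the block, 238 with the groups alone, 251 without the Il7r-low libraries (130 higher, 121 lower) and 38 to 127 with 1 library left out. In CLPs 14 were called, against 169 with DESeq2, 50 with the block, 0 with the groups alone, 53 without the Flt3-high libraries and 0 to 40 with 1 library left out. Between populations 2476 were called, against 5188 on adjusted p alone and 1304 without the Flt3-high libraries. With 3 mice per group and libraries from 1479582 reads, intervals of Bcl2, Bbc3 and Pmaip1 spanned changes of over 1 on the log2 scale in B cell progenitors.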
